A study of Homo sapiens with 21 samples.

Results

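The report covers 10 genes of the mesenchymal cytoskeleton and of caveolae: VIM, CAV1, CAV2, TAGLN, ACTA2, CALD1, TPM1, TPM2, MYL9 and CNN1. They were chosen by gene symbol. All 10 were found among the 37878 genes of the HCC tables and among the 34601 genes of the lung and pancreas table. Vimentin, from VIM, is the intermediate filament protein of mesenchymal cells, and carcinoma cells that take on mesenchymal traits are known to make it in place of or beside keratins. Caveolins, from CAV1 and CAV2, coat caveolae, the small flask-shaped pits of the plasma membrane, and CAV2 protein is known to need CAV1 to reach them. The other 7 genes encode proteins of the actin stress fibre and of smooth muscle. In the liver they are best known from activated stellate cells and myofibroblasts rather than from hepatocytes.

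RNA was read from 21 untreated human cancer cell lines, with 1 Illumina BeadChip array per line. The 11 hepatocellular carcinoma (HCC) lines were Hep3B, HLF, Huh-1, JHH-4, JHH-6, PLC/PRF/5, SK-HEP-1, SNU-423, SNU-475, SNU-739 and SNU-886. The 5 lines labelled lung were Calu-1, Calu-3, Malme-3M, NCI-H596 and NCI-H1299, and the 5 labelled pancreas were AsPC-1, BxPC-3, Capan-1, Capan-2 and MIA-PaCa-2. The series was set up around the dependence of growth on the histone demethylase LSD1, whose value per line was not analysed here. The labels record no treatment and name no repeat cultures, so spread below is spread between lines. The HCC lines were read on another array design than the other 10, and SNU-475 stood in a raw table of its own. HCC lines and the others were therefore normalized apart, and no difference of level between them was computed, because tissue and array design cannot be told apart.

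A level here is the log2 of a background-corrected, quantile-normalized intensity, and a gene counted as detected in a line where its deposited detection p was under 0.05. Levels of different genes come from different probes and are not set against each other. The Hep3B array was the weakest, with 24.9% of all genes detected. Its 95th percentile of raw intensity stood 4.78 times over the control level, against 10.1 to 26.4 times for HCC arrays other than Hep3B and 33.0 to 43.5 times for the lung and pancreas arrays. Of 9 hepatocyte markers, all were detected in Huh-1 and PLC/PRF/5, 5 in Hep3B and SNU-886, and 0 to 3 in the other HCC lines, with none in HLF and SNU-739. The lung lines had 0 or 1 of 5 lung epithelial markers. Malme-3M, known as a melanoma line, had 1 of 6 melanocyte markers and all 7 epithelial ones. E-cadherin (CDH1) was not detected in Calu-3, which is known as an epithelial line, and Capan-2 had 3 of 7 epithelial markers and lacked KRT8, KRT18 and KRT19. Values without these 3 lines or without Hep3B are given below for some ranges and correlations. A correlation printed without such a value may also move when those lines are left out.

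Most of the 10 genes were on in most lines. Of 110 combinations of a gene with an HCC line, 93 were detected (84.5%), as were 38 of 50 in the lung lines (76%) and 38 of 50 in the pancreatic lines (76%). Over all genes the shares were 33.0% in HCC, 43.0% in lung and 42.6% in pancreatic lines. Under a stricter detection p of 0.01 the counts were 81, 33 and 32. CAV1, CAV2 and TPM1 were detected in all 21 lines. CNN1 was detected in 7 of 11 HCC lines and in none of the 10 lung and pancreas lines. A gene could be bright and miss the threshold: TPM2 had a raw intensity of 1862 with a detection p of 0.06 in Calu-1 and of 4460 with 0.08 in BxPC-3. The cause was not tested.

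**Figure D1:**
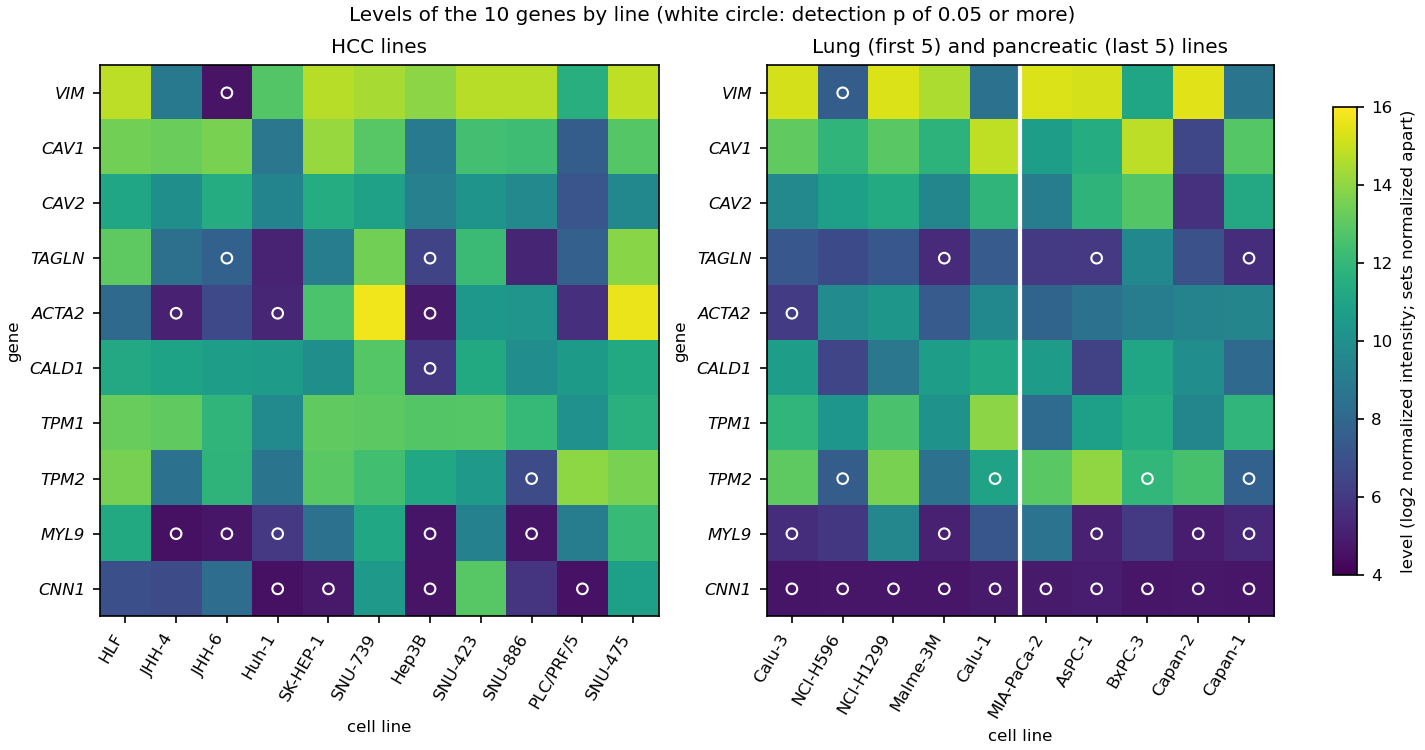
Levels of the 10 genes (rows) in each line (columns), as log2 normalized intensity on a colour scale from 4 to 16, for 11 HCC lines on the left and 5 lung and 5 pancreatic lines on the right, each set normalized apart. White circles mark a detection p of 0.05 or more: ACTA2 spans 4.87 to 15.72 across HCC lines, and CNN1 is undetected in every lung and pancreatic line.

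The genes differed more between lines than most genes did. Across HCC lines the median range of the 10 genes, highest line minus lowest, was 7.39 log2, against 2.58 over the 15583 genes detected in at least 3 HCC lines. Across the lung and pancreas lines it was 5.71 log2 for the 9 genes that passed the same filter, against 1.82 over 17119 genes. CNN1 did not pass there. Without Hep3B the HCC medians were 7.39 log2 for the 10 genes and 1.81 log2 over all genes, and without Capan-2, Calu-3 and Malme-3M those of the other set were 4.44 and 1.59 log2. The widest HCC range was that of ACTA2, 10.84 log2, wider than in 99.98% of genes. TPM1 had the narrowest, 3.52 log2, wider than in 70.2% of genes. Where the lowest line is undetected, a range is measured down to background and cannot show the full distance. With 1 array per line, the order of neighbouring lines has no error of its own, so only wide gaps are described.

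The caveolins followed one another across lines. In HCC, CAV1 stood at 7.55 in PLC/PRF/5, at 8.77 in Huh-1 and at 9.01 in Hep3B, with detection p of 0.00 in each. The other 8 lines lay between 12.29 in SNU-886 and 14.13 in SK-HEP-1, with a median of 12.83 over all 11. The 3 low lines are those with 5 or more hepatocyte markers, apart from SNU-886, which had 5 and stood with the high lines. CAV2 ran from 7.17 in PLC/PRF/5 (detection p 0.01) to 11.45 in SK-HEP-1, with a median of 9.97. The same 3 lines were the lowest 3 for both caveolins.

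Among the other lines, CAV1 levels were 14.83, 13.05, 11.76, 11.86 and 12.92 in the lung lines Calu-1, Calu-3, Malme-3M, NCI-H596 and NCI-H1299. In the pancreatic lines AsPC-1, BxPC-3, Capan-1, Capan-2 and MIA-PaCa-2 they were 11.42, 14.82, 12.85, 6.57 and 10.70. Capan-2 stood 4.13 log2 below the next line. CAV2 in the same order was 11.86, 9.65, 9.52, 10.77 and 11.32 in lung lines and 11.80, 12.78, 11.26, 5.69 and 9.04 in pancreatic lines. Capan-2 was again lowest, with a detection p of 0.02, and BxPC-3 highest, and the groups overlapped for both genes.

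CAV1 and CAV2 correlated at r = 0.86 over 11 HCC lines (rho 0.93) and at r = 0.89 over the 10 others (rho 0.73). The points of such a correlation share their array and its signal strength, and it is given as a description. Leaving out the 2 lines farthest from the CAV1 median left r = 0.74 in HCC (without Huh-1 and PLC/PRF/5) and 0.65 in the others (without Calu-1 and Capan-2). Without Hep3B r was 0.87 in HCC, and without Capan-2, Calu-3 and Malme-3M it was 0.77 in the others. The pair are neighbours on chromosome 7 in the RefSeq annotation. The 250 bases before their first listed starts are shown because the genes moved together, from RefSeq on GRCh38.p14, at chr7:116524759-116525008 for CAV1 and chr7:116499488-116499737 for CAV2, both on the plus strand and read 5′ to 3′.
CAV1: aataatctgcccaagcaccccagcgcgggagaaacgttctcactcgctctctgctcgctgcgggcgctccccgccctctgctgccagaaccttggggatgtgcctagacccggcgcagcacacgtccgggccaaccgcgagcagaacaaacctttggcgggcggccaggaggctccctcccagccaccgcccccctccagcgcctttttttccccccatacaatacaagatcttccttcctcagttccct
CAV2: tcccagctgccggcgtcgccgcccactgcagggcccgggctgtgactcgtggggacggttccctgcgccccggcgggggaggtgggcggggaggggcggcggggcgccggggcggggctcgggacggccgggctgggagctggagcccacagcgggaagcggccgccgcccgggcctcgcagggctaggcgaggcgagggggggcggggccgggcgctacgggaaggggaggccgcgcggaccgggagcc
G and C made up 63.6% of the CAV1 window and 83.2% of the CAV2 window. Neither held a CArG box by the search described with ACTA2.

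Other proteins of the caveola were read from a list of 10 genes. CAVIN1, the coat protein without which caveolae do not form, was detected in all 11 HCC lines at 11.30 in Huh-1 to 13.45 in HLF, a range of 2.14 log2. In the other set it ran from 5.71 in Malme-3M to 14.64 in Calu-1, a range of 8.92 log2, or 3.68 log2 without Capan-2, Calu-3 and Malme-3M. CAVIN3, another coat protein, ran from 5.26 in Hep3B to 12.26 in HLF and correlated with CAV1 at 0.80 in HCC. Without Hep3B its lowest line was PLC/PRF/5 (5.52), and that r was 0.75. In the other set CAVIN3 correlated with CAV1 at 0.44, and at 0.22 without Capan-2, Calu-3 and Malme-3M. The list's median r with CAV1 was 0.20 over the 11 HCC lines, with FLOT2 at -0.53. The ATPase EHD2, which sits at the caveola neck, spanned 5.74 log2 in HCC (5.34 without Hep3B) and CAVIN2 4.19 log2 (4.12). The membrane-bending protein PACSIN2 spanned 7.65 log2, but 0.99 log2 without Hep3B, where it was not detected. The muscle caveolin CAV3 was detected in no HCC line. The list's median range was 3.20 log2 in HCC and 3.33 log2 in the others, against 2.58 and 1.82 over all genes. Without the lines named above it was 2.07 and 2.82 log2, against 1.81 and 1.59 over all genes.

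VIM was high in most lines and low in a few that differ from the caveolin-low ones. In HCC the level was 4.62 in JHH-6 (detection p 0.73), 8.83 in JHH-4, 11.56 in PLC/PRF/5 and 12.77 in Huh-1. The other 7 lines lay between 13.92 and 14.83, and the median was 14.44. The lines with the lowest VIM, JHH-6 and JHH-4, were among the 4 with the most CAV1. Huh-1 and PLC/PRF/5, with all hepatocyte markers, had detectable VIM. VIM correlated at -0.06 with CAV1, -0.09 with CAV2 and 0.18 with TPM1 in HCC. Without JHH-4 and JHH-6, the lines farthest from the VIM median, the values were 0.90, 0.82 and 0.82, so that those lines decide the relation.

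In the lung lines VIM was 15.23 in Calu-3, 7.52 in NCI-H596 (detection p 0.14), 15.38 in NCI-H1299, 14.50 in Malme-3M and 8.47 in Calu-1. In the pancreatic lines it was 15.39 in MIA-PaCa-2, 15.21 in AsPC-1, 11.06 in BxPC-3, 15.45 in Capan-2 and 8.62 in Capan-1. Each group held lines above 14 and lines below 9, with only BxPC-3 between. VIM correlated with CAV1 and CAV2 at -0.48 each over these 10 lines, and at -0.47 and -0.28 without Capan-2, Calu-3 and Malme-3M. Calu-1 had the highest CAV1 and, after NCI-H596, the lowest VIM, while Capan-2 had the lowest CAV1 and the highest VIM.

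The 4 genes of the smooth muscle programme, TAGLN, ACTA2, MYL9 and CNN1, were high together in a few HCC lines. TAGLN encodes transgelin, an actin-bundling protein of smooth muscle. It stood at 13.87 in SNU-475, 13.45 in SNU-739, 13.03 in HLF and 12.18 in SNU-423, and at 5.15 to 9.09 in the other 7 lines, with a median of 8.41 over all. Its detection p did not track its level: it was 0.03 in SNU-423 at a level of 12.18 and 0.02 in SNU-886 at 5.22. TAGLN was undetected in JHH-6 (detection p 0.05) and Hep3B (0.21). ACTA2 encodes the alpha actin of smooth muscle and myofibroblasts. It was 15.72 in SNU-739, 15.65 in SNU-475, 12.61 in SK-HEP-1, 10.41 in SNU-423 and 10.27 in SNU-886. HLF followed at 8.15 and JHH-6 at 6.63. The remaining 4 lines, Hep3B, JHH-4, Huh-1 and PLC/PRF/5, lay at 4.87 to 5.60, and only PLC/PRF/5 of them was detected.

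MYL9 encodes the regulatory light chain of smooth muscle and non-muscle myosin II. Its HCC levels split into 6 detected lines, from 8.46 in SK-HEP-1 to 12.08 in SNU-475, and 5 undetected ones at 4.53 to 5.98. CNN1 encodes calponin, an actin- and calmodulin-binding protein of differentiated smooth muscle. It stood at 12.87 in SNU-423, 10.79 in SNU-475 and 10.45 in SNU-739, at 5.82 to 8.28 in JHH-6, HLF, JHH-4 and SNU-886, and was undetected in the other 4 lines. SNU-475 and SNU-739 were thus high for all 4 genes. SNU-423 was high for TAGLN and CNN1. Its ACTA2 (10.41) lay near that of SNU-886 (10.27), and its MYL9 (9.27) near that of PLC/PRF/5 (9.07). HLF joined SNU-475 and SNU-739 for TAGLN and MYL9 only, and SK-HEP-1, high for ACTA2, had no detectable CNN1. SNU-475 stood in a raw table of its own, with detection p given to more digits. A difference in processing cannot be told apart from the line there.

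The 6 correlations among these 4 genes in HCC ran from 0.51 to 0.87, with a median of 0.68, and from 0.45 to 0.86 without Hep3B. TAGLN and MYL9 gave the highest (r = 0.87, rho 0.75), and 0.78 without SNU-739 and SNU-475, the 2 lines farthest from the TAGLN median. The 3 pairs with ACTA2 rest largely on the same 2 lines. ACTA2 gave 0.69 with TAGLN, 0.68 with MYL9 and 0.60 with CNN1, and 0.37, 0.39 and 0.31 without SNU-739 and SNU-475. Over the lung and pancreas lines the 3 measurable pairs gave 0.17, 0.19 and 0.32.

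Markers of fibroblasts and smooth muscle moved more with some of these genes than with others in HCC. The 6 markers that passed the filter had a median r of 0.68 with ACTA2, 0.66 with CNN1, 0.46 with TAGLN and 0.38 with MYL9. Of 8 such markers 7 were detected in SNU-739, 6 in SNU-475, 5 in SNU-886, 4 in SNU-423 and 1 to 3 in the other HCC lines. The log2 of their summed level ran from 8.31 to 15.05 over the HCC lines, with 15.05 in SNU-739, 14.23 in SNU-423, 13.96 in SNU-475 and 12.52 in SNU-886 as the highest. HLF, high for TAGLN and MYL9, had a summed level of 8.92, while SNU-886 had TAGLN at 5.22 and no detected MYL9. MYH11, the heavy chain that defines smooth muscle, was detected only in HLF. Over HCC lines ACTA2 correlated with the collagen gene COL1A1 at 0.85 and with the marker PDGFRB at 0.47. With COL1A1 it gave 0.22 over the others. The samples are cultured lines and not mixed tissue. In bulk RNA of a line, the share of cells that express a gene and its RNA per cell cannot be told apart. The part of these markers in the result was not tested. DES and MYH11 of this list also stand in the lists of filament and contractile genes below. Actin genes are alike in sequence, and how far the ACTA2 probe reads others could not be checked; ACTG2, the other smooth muscle actin, was highest in SNU-475 (14.57) and correlated with ACTA2 at 0.75.

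In the lung and pancreas lines TAGLN, ACTA2 and MYL9 spanned 4.14, 4.21 and 4.60 log2, against 8.72, 10.84 and 7.56 log2 in HCC on the other array design. TAGLN was 7.46, 7.24, 5.46, 6.71 and 7.27 in Calu-1, Calu-3, Malme-3M, NCI-H596 and NCI-H1299, and 5.99, 9.60, 5.57, 6.97 and 6.06 in AsPC-1, BxPC-3, Capan-1, Capan-2 and MIA-PaCa-2. Only BxPC-3 stood apart, 2.14 log2 above the next line. TAGLN was undetected in Malme-3M (detection p 0.06), AsPC-1 (0.12) and Capan-1 (0.13). ACTA2 in the same order was 9.59, 6.14, 7.46, 9.78 and 10.35 in lung lines and 8.53, 9.03, 9.46, 9.39 and 7.89 in pancreatic lines, where all 5 fell within 1.57 log2. MYL9 was 7.23, 5.59, 5.08, 5.96 and 9.56 in lung lines and 5.12, 6.03, 5.32, 4.96 and 8.55 in pancreatic lines, high in NCI-H1299 and MIA-PaCa-2. MYL9 was undetected in Calu-3 (detection p 0.07), Malme-3M (0.54), AsPC-1 (0.51), Capan-1 (0.17) and Capan-2 (0.74), and ACTA2 in Calu-3 (0.05). CNN1 lay at 4.70 to 4.94 throughout, with detection p of 0.73 or more.

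Smooth muscle genes are known targets of serum response factor (SRF), which binds the CArG box. The box has 10 bases, with C pairs and G pairs around an A- and T-rich core, and it reads the same on both strands. The 250 bases before each RefSeq start were searched for it, either exact or with 1 G or C inside the core. RefSeq windows were matched for 8 of the 10 genes (16 windows), all but TAGLN and MYL9. Of all 35116 windows 7.04% held such a box and 0.587% held at least 2. Among the genes described here 2 windows held a box, 1 of ACTA2 with 2 boxes and 1 of CALD1. The other ACTA2 window (chr10:88991338-88991587, minus strand) held none. The ACTA2 window with the boxes (chr10:88952774-88953023, minus strand) and that of CNN1 (chr19:11538601-11538850, plus strand) are both on GRCh38.p14. They are shown since both genes were high together in SNU-475 and SNU-739. Capitals mark the boxes.
ACTA2: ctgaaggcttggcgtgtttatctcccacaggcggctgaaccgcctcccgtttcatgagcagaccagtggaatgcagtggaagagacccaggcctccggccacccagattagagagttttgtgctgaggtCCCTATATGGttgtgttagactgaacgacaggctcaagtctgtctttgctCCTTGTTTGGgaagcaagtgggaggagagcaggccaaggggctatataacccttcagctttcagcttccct
CNN1: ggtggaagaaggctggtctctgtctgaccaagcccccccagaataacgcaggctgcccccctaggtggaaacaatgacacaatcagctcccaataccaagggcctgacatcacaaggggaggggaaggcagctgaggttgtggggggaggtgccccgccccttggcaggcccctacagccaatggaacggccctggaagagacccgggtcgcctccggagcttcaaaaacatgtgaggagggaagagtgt
The ACTA2 boxes, CCCTATATGG and CCTTGTTTGG, began 121 and 71 bases before the start, each with 1 departure. No box of this kind stood in the CNN1 window. The CALD1 box, CCTAAAGAGG, lay 26 bases before the start of 1 of its 4 windows. A match is a run of letters and not a measured site.

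SRF itself was detected in all 21 lines, at 10.82 in Huh-1 to 12.59 in SNU-739 among HCC lines and at 11.06 to 12.84 among the others. MYOCD, its smooth muscle coactivator, was detected in 6 HCC lines at levels of at most 6.74 (SNU-475) and in none of the others. Of a list of 11 genes on SRF, its coactivators and targets, CCN2 spanned 9.66 log2 in HCC, lowest in Hep3B and highest in SNU-739, and 5.90 log2 without Hep3B. It encodes a secreted matrix protein also driven by YAP. ANKRD1 spanned 6.39 log2, CCN1 5.97 log2 and JUNB 5.64 log2, with JUNB lowest in SNU-739 and highest in Hep3B (3.41 log2 without it). The list's median range was 3.61 log2 in HCC, and 3.60 log2 without Hep3B.

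CALD1 encodes caldesmon, which binds actin, myosin and tropomyosin and restrains actomyosin. It lay at 9.86 in SNU-886 to 12.85 in SNU-739 over 10 HCC lines, and stood at 5.96 in Hep3B with a detection p of 0.05. Its HCC range of 6.89 log2 was 2.99 log2 without Hep3B. In the other set CALD1 was 11.16, 10.68, 10.68, 6.50 and 8.74 in the lung lines, in the order given for CAV1, and 6.34, 11.06, 8.10, 9.88 and 10.62 in the pancreatic lines. NCI-H596 and AsPC-1 were the lowest.

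Tropomyosins lie along actin filaments and set which motors and binding proteins reach them. TPM1 in HCC was 9.71 in Huh-1 and 10.09 in PLC/PRF/5, and 11.61 to 13.23 in the other 9 lines, with a median of 12.80. The low pair are again the lines with all hepatocyte markers, while Hep3B, low for CAV1, stood at 12.80. TPM1 correlated with CAV1 at 0.72 (0.88 without Hep3B), but at 0.02 without Huh-1 and PLC/PRF/5. That last value keeps Hep3B, with its low CAV1 and high TPM1, so the value turns on which lines are included. In lung lines TPM1 was 13.90, 11.90, 10.12, 10.32 and 12.55, and in pancreatic lines 10.79, 11.44, 11.91, 9.49 and 8.19. There it correlated with CAV1 at 0.71, and at 0.72 without Calu-1 and Capan-2.

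TPM2 took another order. Its highest HCC level was 13.96 in PLC/PRF/5, followed by 13.60 in SNU-475 and 13.55 in HLF. It was lowest in JHH-4 (8.50) and in SNU-886 (6.75, detection p 0.12), with a median of 11.80. TPM2 correlated with TPM1 at 0.06 and with MYL9 at 0.72 in HCC. In lung lines it was 10.91, 13.00, 8.54, 7.55 and 13.60 and in pancreatic lines 13.99, 11.96, 7.73, 12.52 and 12.92. TPM2 counted as undetected in Calu-1 (detection p 0.06), NCI-H596 (0.07), BxPC-3 (0.08) and Capan-1 (0.10). Over these 10 lines TPM2 correlated with VIM at 0.73, at 0.90 without Capan-2, Calu-3 and Malme-3M, and at 0.68 without NCI-H596 and Calu-1, the lines farthest from the VIM median. Malme-3M, with high VIM and low TPM2, lay off that relation.

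**Figure D2:**
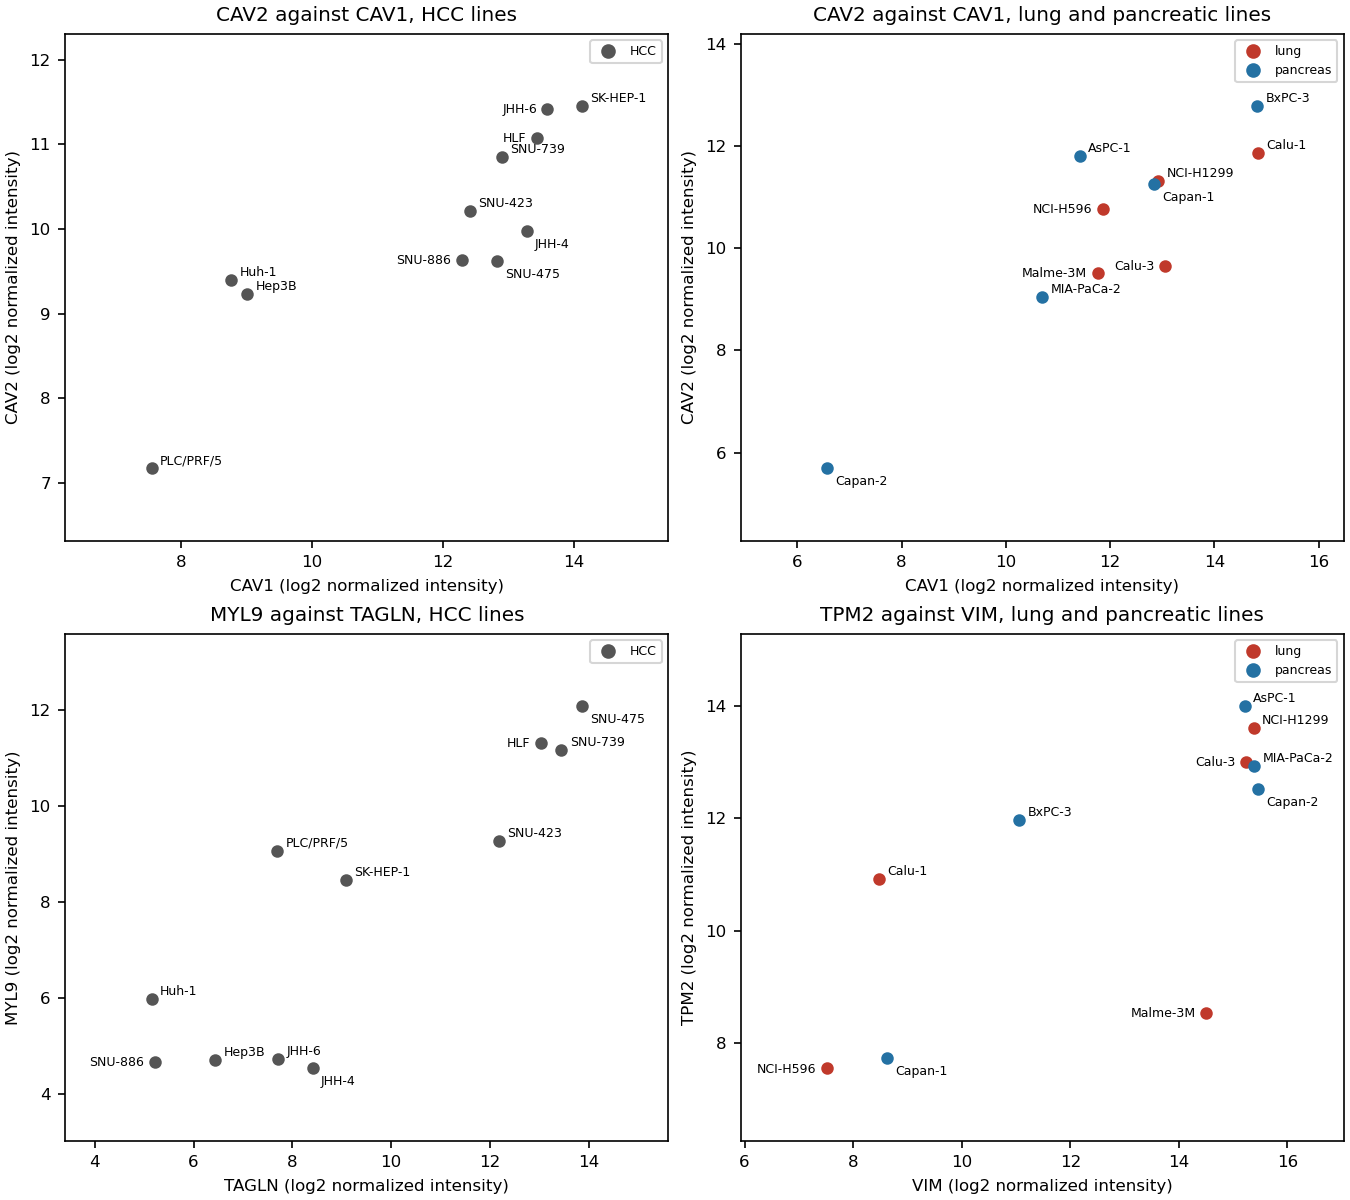
Levels (log2 normalized intensity) of CAV2 against CAV1 in HCC lines and in lung and pancreatic lines (upper panels), of MYL9 against TAGLN in HCC lines (lower left) and of TPM2 against VIM in lung and pancreatic lines (lower right), with 1 point per line. PLC/PRF/5 and Capan-2 lie lowest for both caveolins, and Malme-3M lies low for TPM2 at a VIM level of 14.50.

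Correlations between the genes were mostly positive in HCC, and the difference from the lung and pancreas lines was not tested. Of 45 pairs in HCC 41 had a positive r and 18 an r over 0.5, with a median of 0.38. The 10 genes with all other genes gave a median of 0.02, with 52.3% positive and 8.12% over 0.5. In the lung and pancreas lines 25 of 36 pairs were positive and 4 were over 0.5, with a median of 0.18. With other genes the median there was 0.00, with 50.1% positive and 7.87% over 0.5. The pairs over 0.5 there were CAV1 with CAV2, VIM with TPM2, and TPM1 with each caveolin. These stayed over 0.5 without Capan-2, Calu-3 and Malme-3M, but other pairs then joined them. The pairs that joined were CAV1 with TAGLN (0.75), ACTA2 with TPM1 (0.72), CAV2 with TAGLN (0.62), and CALD1 with CAV1 and with TAGLN (0.56 each). Which pairs pass 0.5 thus turns on those lines. In HCC, TAGLN and MYL9 each had 6 of 9 partners over 0.5, and VIM, CAV2, TPM1 and TPM2 had 2 each.

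**Figure D3:**
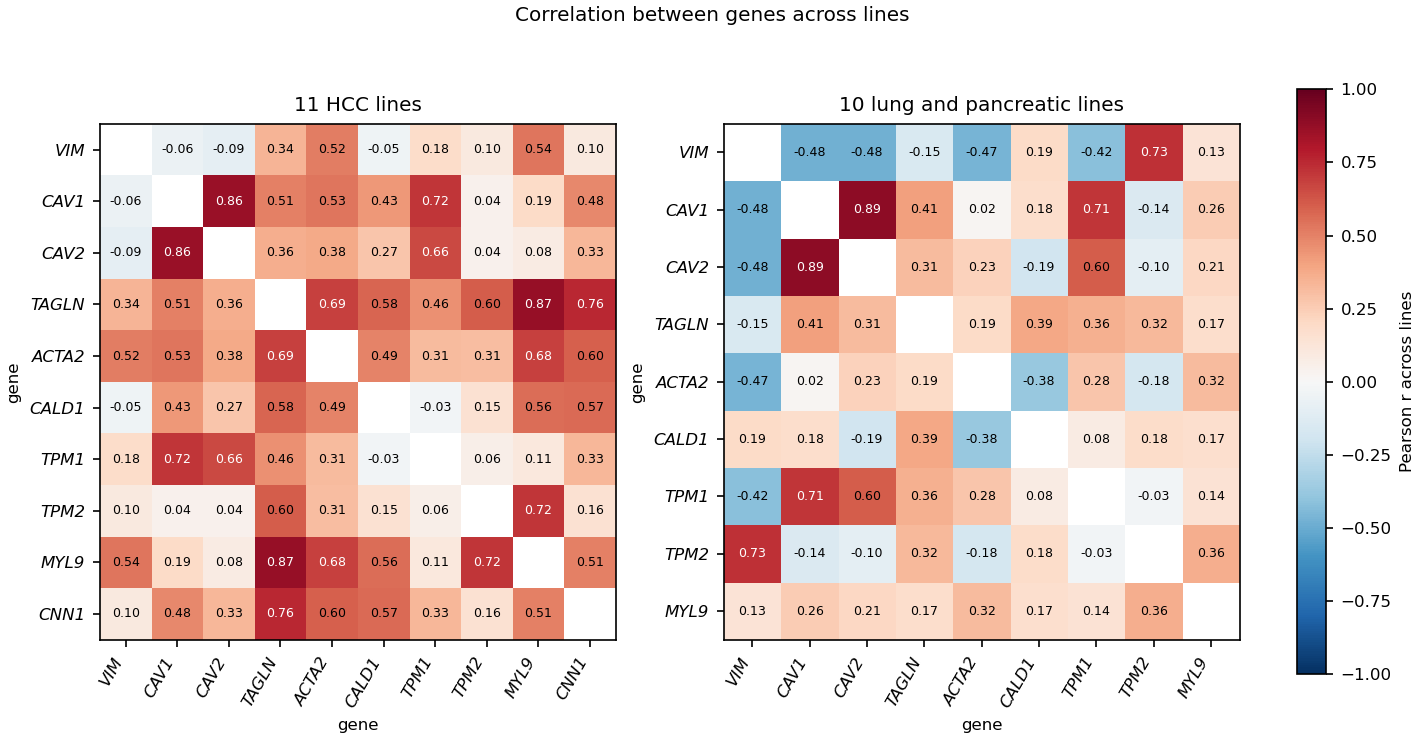
Pearson correlation between each pair of genes across 11 HCC lines (left) and across 10 lung and pancreatic lines (right; CNN1 did not pass the detection filter). Red is positive and blue negative: a block of TAGLN, ACTA2, MYL9 and CNN1 stands at 0.51 to 0.87 in HCC, and VIM is negative with both caveolins (-0.48) in the lung and pancreatic lines.

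The genes most like each of these in pattern were taken as the 2 with the highest r among genes with an SD of at least 1 log2. There were 5056 such genes in HCC and 3643 in the other set. In HCC, CAV1 was nearest to CDC42EP3 (0.95) and LOC644695 (0.94) and CAV2 to EVA1A (0.89) and BDNF (0.86). VIM was nearest to CD81 (0.85) and JOSD2 (0.85), and TAGLN to FMN2 (0.91) and SCARA3 (0.89). ACTA2 was nearest to OXCT1 (0.90) and the collagen gene COL3A1 (0.90), MYL9 to UCHL1 (0.98) and DKK3 (0.88), and CNN1 to SLC1A3 (0.96) and HS.369398 (0.93). TPM1 was nearest to CCN1 (0.93) and FHL2 (0.92) and TPM2 to GSTP1 (0.83) and C11ORF70 (0.80). For CALD1, TAF1C was among the nearest (0.96), at 0.85 without Hep3B.

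The nearest genes in the lung and pancreas lines were taken in the same way. CAV1 was nearest to ARAP3 (0.91) and PARVA (0.90), which encodes the focal adhesion protein parvin alpha, and CAV2 to SMAD3 (0.94) and STING1 (0.92). VIM was nearest to NR2F1 (0.88) and SPRY2 (0.87), TAGLN to FLI1 (0.90) and STARD5 (0.86), and ACTA2 to C3ORF14 (0.90) and TESK2 (0.87). CALD1 was nearest to LOC729708 (0.93) and FLJ39632 (0.90), TPM1 to ME3 (0.90) and SMAD7 (0.87), TPM2 to PLEKHG2 (0.90) and ERCC1 (0.85), and MYL9 to MYBL1 (0.89) and ARHGAP33 (0.85). None of the 18 genes named for this set is among those named for HCC. With so few genes taken from 5056 and 3643, shared names would be rare in any case. Their absence therefore does not compare the sets.

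CDH1, the epithelial adhesion gene, ran opposite to some of these genes in HCC. It was detected in 5 of 11 HCC lines, so its other values there lie at background. It correlated at -0.74 with CAV1, at -0.72 with CAV2 and at -0.88 with TPM1, and at 0.06 with VIM. Without Hep3B these values were -0.93, -0.80, -0.88 and 0.09. Without Huh-1 and PLC/PRF/5 the values for CAV1 and TPM1 were -0.14 and -0.41, and without SK-HEP-1 and PLC/PRF/5 that for CAV2 was -0.53. Without JHH-4 and JHH-6 the value for VIM was -0.78. In the lung and pancreas lines CDH1 correlated at 0.10 with CAV1, -0.10 with TPM1 and -0.45 with VIM (-0.73 without NCI-H596 and Calu-1). KDM1A, which encodes LSD1, correlated at -0.38 (CALD1) to 0.66 (TPM1) with the 10 genes in HCC. Without Hep3B the span was 0.19 (TPM2) to 0.85 (ACTA2). Leaving out instead the 2 lines farthest on each gene, it was -0.83 (CAV1) to 0.58 (VIM), with 0.09 for TPM1 and 0.11 for ACTA2, so these values turn on which lines are included. In the lung and pancreas lines the span was -0.33 (ACTA2) to 0.66 (CALD1). Leaving out the 2 lines farthest on each gene there, it was -0.78 (TPM2) to 0.26 (CALD1). TPM2 gave -0.12 over all 10 lines.

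Lung and pancreatic lines, the only labelled groups within 1 array design, were compared for all genes with limma. Of 17119 genes tested 1 passed an adjusted p of 0.05 (0.00584%). This was BTBD6 (adjusted p = 4.27e-06), at 12.07 ± 0.10 in lung lines and 6.61 ± 0.43 in pancreatic lines (SD, n = 5 each). None of the 9 genes tested here passed by limma (adjusted p = 0.9999 for each), and none had an unadjusted p under 0.05, which 3.64% of all genes had. The groups overlapped for all 9, while they did not for 0.613% of all genes. The median difference of the 9, lung minus pancreas, was 0.35 log2, against 0.00 over all genes, with 5 positive and 4 negative. The median SE was 1.10 log2, against 0.35 log2 over all genes. Epithelial markers detected numbered 3 to 7 of 7 in each lung and each pancreatic line, and fibroblast and smooth muscle markers 0 to 3 of 8 in lung lines and 1 to 5 in pancreatic lines; their part was not tested.

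TPM1 and CAV1 had the largest differences relative to their SE. TPM1 averaged 11.75 ± 1.58 in lung lines and 10.36 ± 1.52 in pancreatic lines, a difference of 1.39 log2 with a 95% interval of -0.57 to 3.35. CAV1 averaged 12.88 ± 1.24 in lung lines and 11.27 ± 3.06 in pancreatic lines, a difference of 1.61 log2 (-1.32 to 4.54). VIM averaged 12.22 ± 3.88 in lung lines and 13.15 ± 3.14 in pancreatic lines, a difference of -0.93 log2 (-5.34 to 3.48). For VIM and TPM1 the SD within each tissue exceeded the difference between them. For CAV1 it did so in pancreatic lines only. TPM2 differed by -1.10 log2, MYL9 by 0.69, CAV2 by 0.51, CALD1 by 0.35, ACTA2 by -0.20 and TAGLN by -0.01. Without Capan-2, Calu-3 and Malme-3M, none passed either, and TAGLN, ACTA2 and CALD1 changed sign, to 0.34, 1.18 and -0.23 log2.

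**Figure D4:**
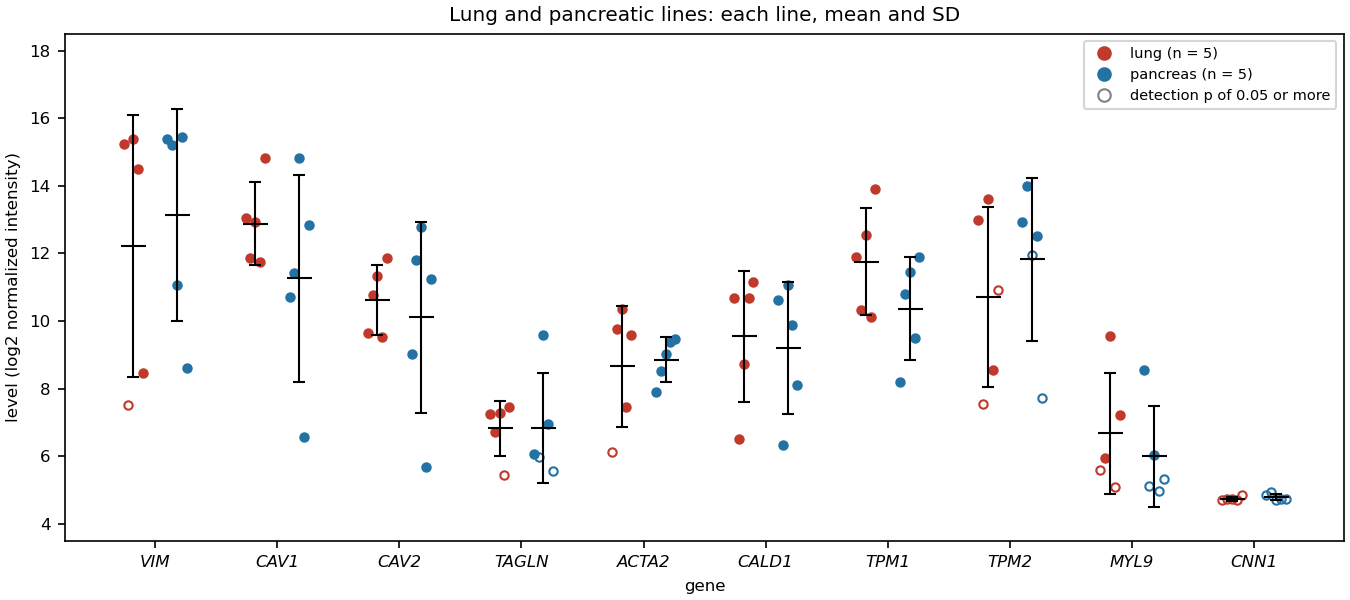
Level (log2 normalized intensity) of each gene in 5 lung lines (red) and 5 pancreatic lines (blue), 1 point per line, open where detection p was 0.05 or more, with bars for the mean and SD. The groups overlap for every gene, and VIM spans 7.52 to 15.38 in lung lines and 8.62 to 15.45 in pancreatic lines.

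No related gene passed between these tissues either: 0 of 24 tested contractile partners and paralogs, 0 of 8 caveola genes, 0 of 9 SRF genes and 0 of 8 other intermediate filament genes passed with limma. The median differences, lung minus pancreas, were 0.16, -0.24, 0.15 and 0.57 log2. At an unadjusted p under 0.05 there were 0, 0, 1 and 1. The largest per list were MYH10, a non-muscle myosin heavy chain, at 1.50 log2 (SE 1.50), CAVIN2 at -1.47 (SE 1.10), CCN2 at 2.13 (SE 0.65) and KRT19 at -2.71 (SE 2.30). Across HCC lines the widest of the contractile partners were ACTG2 (10.15 log2) and the filamin FLNC (8.85), both highest in SNU-475 and as wide without Hep3B. The actinin ACTN4 (6.85) and TPM4 (5.72) were lowest in Hep3B, and spanned 1.72 and 3.29 log2 without it. Of the intermediate filaments, the keratins KRT19, KRT8 and KRT7 spanned 9.41, 7.26 and 6.72 log2, and nestin (NES) 6.72 log2. KRT8 was lowest in Hep3B and spanned 2.59 log2 without it. NES was highest in SNU-739.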

How the data were processed

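The authors used BeadStudio (version not stated), per the submitters' processing notes. Per the file headers, the deposited raw values are an average bead intensity and a detection p-value for each gene; how probes of a gene were combined is not stated. The authors' processed intensity tables, of unstated method, served as an alternative, and all 21 columns correlated best with their own line. The control mean and SD were read from signal at detection p of 0.1 to 0.9, because limma's own estimate compressed the lung and pancreas values to 0.031 log2. Background was corrected by normexp with an offset of 16, then arrays were quantile normalized within each set and taken to log2. Genes detected at p under 0.05 in at least 3 lines were tested with limma 3.58.1 (R 4.3.3; lmFit, eBayes, Benjamini-Hochberg 0.05), which was tested on simulated data. Correlations and summaries were computed with pandas 2.3.3 and SciPy 1.17.1 (Python 3.11.15). Precision is limited by 1 array per line, and no repeat culture is labelled, so p-values measure the spread between lines. The genes, lists and markers were chosen with earlier results of these data known. Genes to name were the 10 themselves, the 2 most correlated per gene and set, up to 4 per list with the widest HCC range or largest difference, genes that passed, and KDM1A; of the largest differences the first per list is printed. A gene that the rule names is not reported here. CAV3, SRF, MYOCD and the markers named belong to the lists but fall outside that rule, and were picked after their values were seen. Alternatives were no background correction, limma's estimate, median scaling, the authors' values, an offset of 50, other detection filters and leaving out lines. Ranges, medians and correlations given without Hep3B, or without Capan-2, Calu-3 and Malme-3M, were chosen after seeing the data.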

Additional observations from a re-analysis of the deposited data

How the results depend on the processing

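No gene of the 10 passed between lung and pancreatic lines under any alternative run. The count over all genes was 2 with a detection p under 0.01 in at least 5 lines, 3 without Capan-2, Calu-3 and Malme-3M (chosen after seeing the data), and 1 to 4 with 1 line left out. With limma's own control estimate CAV2 and ACTA2 changed sign, to -0.000417 and 7.02e-05 log2, but the lung and pancreas values were so compressed that they do not test a result. Without Capan-2, Calu-3 and Malme-3M, TAGLN, ACTA2 and CALD1 changed sign, to 0.34, 1.18 and -0.23 log2. Leaving out 1 line at a time, the differences ran from -2.06 to 0.25 for VIM, -0.60 to 1.17 for CAV2, -0.33 to 0.68 for TAGLN, -0.62 to 0.43 for ACTA2, -0.36 to 1.12 for CALD1 and -0.031 to 1.33 for MYL9, changing sign, and from 0.43 to 2.50 for CAV1, 0.85 to 1.80 for TPM1 and -2.13 to -0.31 for TPM2, keeping it. The median correlation among the genes was 0.31 to 0.48 in HCC and 0.14 to 0.20 in lung and pancreas lines with 1 line left out; in the lung and pancreas lines it was 0.0645 with limma's own estimate and 0.0787 with the stricter filter, which left 6 genes and gave no value for the other members. HCC ranges fell to 5.997 log2 for VIM without JHH-6, to 2.22 for CAV2 without PLC/PRF/5 and to 2.99 for CALD1 without Hep3B, and CALD1 spanned 5.00 in the authors' values. With limma's own estimate, which left HCC arrays a span of 7.02 log2 against 11.4, HCC ranges were 6.42 for VIM, 2.73 for CAV2, 5.39 for TAGLN, 4.35 for CALD1, 3.57 for MYL9 and 4.40 for CNN1. The cause was not tested. No paired analysis was run, because these are separate cell lines and the labels pair none of them.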
